A study of Mus musculus with 6 samples.

Results

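The genes described here are 10 purinergic genes of mast cells, chosen by name as a list of receptors for extracellular nucleotides and adenosine together with Entpd1, the ecto-enzyme CD39. The list was chosen with earlier results of these data known. They are P2rx1, P2rx4 and P2rx7, P2ry1, P2ry2 and P2ry14, Adora2a, Adora2b and Adora3, and Entpd1. All 10 were found among the 35297 genes to which the transcripts of the quantification tables could be matched, and they hold 37 of the 129698 transcripts listed. All 10 passed the filter on low counts that left 12461 genes for testing.

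RNA was sequenced from bone marrow-derived mast cells (BMMCs) of naive wild type BALB/c mice (libraries S9, S10 and S11) and C57BL/6 mice (libraries S12, S13 and S14) on day 20 of culture. Both strains were grown in the same medium, supplemented with stem cell factor, TGF-β1, IL-3 and IL-9, no gene was altered, and age and sex of the marrow donors are not given in the sources used here. The study describes separate cultures and counts 3 biological replicates per strain, but the labels tie no library to a culture or an animal. The p-values measure the spread between these libraries. Such cells model mast cells that mature in a dish from marrow and not those resident in a tissue.

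ATP leaves activated or injured cells and acts on P2X receptors, which are cation channels opened by ATP, and on P2Y receptors, which are coupled to G proteins and also sense ADP, UTP or nucleotide sugars. At the cell surface CD39 cuts ATP and ADP to AMP, CD73 (encoded by Nt5e) cuts AMP to adenosine, and adenosine acts on its own G protein-coupled receptors. Mast cells both release ATP when they degranulate and respond to ATP and adenosine, and in mouse mast cells the A3 receptor is known for enhancing degranulation.

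The main differences were in the minor receptors of each family. The adenosine receptor gene Adora2b was 2.72-fold higher in BMMCs of C57BL/6 than of BALB/c mice, P2ry2 was 5.48-fold lower and P2rx1 2.57-fold lower. Adora2a, with few reads, was 2.02-fold higher. The most abundant genes of the 10, Adora3, P2rx4 and P2ry14, differed by at most 1.24-fold. With an adjusted p under 0.05 and a fold change above 2 (quasi-likelihood test of edgeR, Benjamini-Hochberg adjustment), 4 of the 10 genes were past both thresholds, 2 higher and 2 lower in C57BL/6, where 13.3% of all genes tested were past both (7.73% higher and 5.54% lower). By the adjusted p alone, 8 of the 10 differed, 4 higher and 4 lower, against 52.9% of all genes tested (27% higher and 25.9% lower). This split depends on the scaling, with 3 higher and 5 lower under plain library size and 2 higher and 5 lower on log2(TPM + 1). The median absolute log2 fold change was 0.52 over the 10 genes and 0.24 over all genes tested. Because the list was chosen with earlier results of these data known, these counts and medians describe it and test nothing about it.

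Each library held between 28273365 and 37100869 reads assigned to genes, of which the 10 genes took between 34009 and 46375. Counts are given as CPM, reads scaled to a library size that was corrected with TMM factors, and log2 fold changes are always C57BL/6 over BALB/c. Levels are compared between genes only as TPM, which divides reads by transcript length. Scaling matters for small differences, because the median log2 fold change of all genes tested was -0.01 with TMM factors but -0.15 with plain library size and on log2(TPM + 1). In CPM the strains were fully separated for 10 of the 10 genes, and for 61.9% of all genes tested, while in TPM they were apart for 8, and for 69.5% of all genes tested, and overlapped for P2ry1 and Adora3.

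The upstream sequences of the 3 genes whose call held under each alternative setting tried are shown for reference, from RefSeq on GRCm38.p6. Each window ends 1 base before the most upstream annotated start, and capitals mark the GC box, searched as GGGCGG on both strands (CCGCCC on the strand shown).
P2rx1, chr11:72998895-72999055, forward strand: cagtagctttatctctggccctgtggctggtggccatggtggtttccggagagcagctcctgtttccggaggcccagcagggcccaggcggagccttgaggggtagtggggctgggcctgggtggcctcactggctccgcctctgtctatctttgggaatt
P2ry2, chr7:101012054-101012303, reverse strand: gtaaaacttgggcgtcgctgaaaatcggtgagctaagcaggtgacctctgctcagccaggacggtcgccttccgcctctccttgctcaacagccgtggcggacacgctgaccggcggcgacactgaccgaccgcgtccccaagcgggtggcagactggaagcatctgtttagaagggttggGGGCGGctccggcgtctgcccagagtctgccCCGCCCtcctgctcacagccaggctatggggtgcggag
Adora2b, chr11:62248734-62248983, forward strand: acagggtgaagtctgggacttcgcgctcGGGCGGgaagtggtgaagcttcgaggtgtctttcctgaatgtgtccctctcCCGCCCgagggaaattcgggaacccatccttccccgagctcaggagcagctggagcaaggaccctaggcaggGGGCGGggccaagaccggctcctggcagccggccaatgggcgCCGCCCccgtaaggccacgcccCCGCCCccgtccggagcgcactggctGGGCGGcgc
The Adora2b window held 6 such matches and the P2ry2 window 2, and 32.7% of the 32851 RefSeq promoter windows held at least 1 in a window of this length. The P2rx1 window of 161 bases held none, against 18.2% of all windows cut to their first 161 of 250 bases. The cut windows end farther from the start than the P2rx1 window, so they are alike in length only. A TATA box (TATAAA, both strands) was in none of the 3 windows, and was in 12.4% of all windows of 250 bases and 7.7% of those cut to 161 bases. These matches describe the letters of the reference sequence, and nothing about binding was measured.

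P2rx1, on chromosome 11 of GRCm39 (chr11:72889875-72906026, forward strand), encodes a channel that opens fast and desensitizes quickly. It had 24.0, 28.8 and 23.5 TPM in BALB/c (S9, S10, S11) and 9.46, 8.37 and 8.42 TPM in C57BL/6 (S12, S13, S14). Every C57BL/6 library lay far below every BALB/c library, and S10 was the highest. In reads these were 1227, 1399 and 1461 against 545, 431 and 546. The level dropped in C57BL/6 from 41.4 ± 4.76 to 16.1 ± 0.835 CPM (SD, n = 3 per strain), with log2 fold change -1.36 (SE 0.09, Benjamini-Hochberg adjusted p = 1.86e-06 in edgeR). Leaving out single libraries kept it at -1.41 to -1.26.

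P2rx7 and P2rx4 are neighbours on chromosome 5 of GRCm39, on the forward strand (chr5:122781942-122830400 and chr5:122845541-122867803). The channel P2X7 responds to high concentrations of ATP and activates the NLRP3 inflammasome, and P2X4 is a channel with high calcium permeability that is found largely in lysosomes. P2rx7 had 59.3, 74.0 and 71.8 TPM in BALB/c and 49.4, 44.9 and 48.1 TPM in C57BL/6 libraries, so that all C57BL/6 libraries were lower and S9 was nearest to them. Its level went from 213 ± 26.3 to 158 ± 2.98 CPM (SD, n = 3 per strain), with log2 fold change -0.43 (SE 0.08, Benjamini-Hochberg adjusted p = 0.00157 in edgeR). P2rx4 had 146, 147 and 139.8 TPM in BALB/c and 158, 151 and 163 TPM in C57BL/6 libraries, a narrow gap in the other direction. The means were 256 ± 4.29 and 317 ± 7.93 CPM, with log2 fold change 0.30 (SE 0.04, adjusted p = 1.17e-04 in edgeR), under the 2-fold criterion. On log2(TPM + 1) the difference of P2rx4 was 0.13 and no longer passed (adjusted p = 0.0565 from limma).

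The make-up of the P2X family differed between the strains. The summed TPM of the 3 channels was 238 ± 10.7 in BALB/c and 214 ± 7.98 in C57BL/6 (SD, n = 3 per strain), but in CPM, with TMM factors, the sums overlapped (511 ± 31.1 and 491 ± 9.30). CPM is not divided by transcript length. A CPM sum, here and for the other families, therefore weights longer genes more and differs from the TPM sum in more than scaling. P2rx4 took 60.6 ± 2.59% of the summed TPM in BALB/c and 73.7 ± 0.696% in C57BL/6. P2rx7 took 28.7 ± 2.46% and 22.2 ± 0.456%, and P2rx1 10.7 ± 0.786% and 4.10 ± 0.260%. The strains were apart for all 3 shares.

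**Figure D1:**
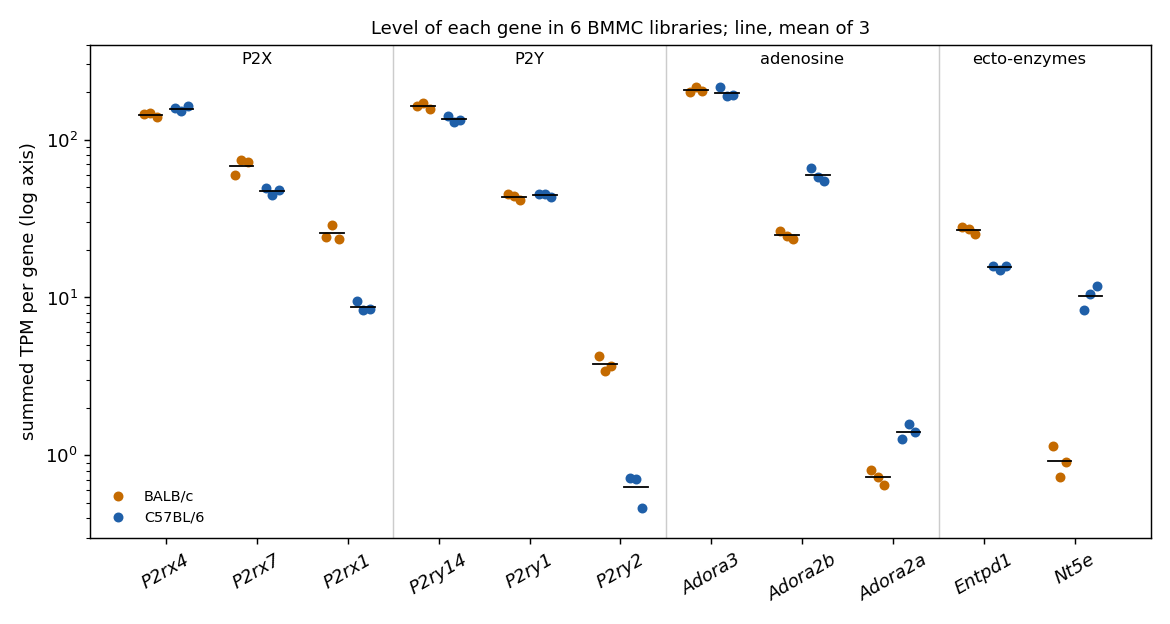
Level of the 10 genes and of Nt5e as summed TPM per gene (log axis), grouped by family. Points are the 6 libraries (BALB/c orange, C57BL/6 blue) and lines are means of 3. Adora3, P2ry14 and P2rx4 stand highest in both strains, P2ry2 and P2rx1 are lower and Adora2b, Adora2a and Nt5e higher in C57BL/6, and P2ry1 and Adora3 overlap.

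P2ry2, on chromosome 7 of GRCm39 (chr7:100640649-100663957, reverse strand), encodes a receptor for ATP and UTP that couples to Gq and phospholipase C, and showed the largest difference among the 10 genes. It had 4.27, 3.42 and 3.69 TPM across BALB/c libraries and 0.715, 0.711 and 0.463 TPM across C57BL/6 libraries. The lowest BALB/c library stood well above the highest C57BL/6 library. In reads these were 262, 204 and 278 against 48, 43 and 37, so the gene was detected in every library. P2ry2 fell from 7.49 ± 0.697 to 1.38 ± 0.292 CPM (SD, n = 3 per strain), with log2 fold change -2.45 (SE 0.17, 95% interval -2.83 to -2.08, Benjamini-Hochberg adjusted p = 2.82e-06 in edgeR). On log2(TPM + 1), a scale that understates changes of low genes, it was -1.56. Of all genes tested, 4.62% had a larger absolute fold change. An lncRNA on the opposite strand, Gm74011, shares 653 exon bases with P2ry2, and others share 1049 with P2ry1, 311 with P2rx7, 166 with P2rx4, 103 with P2ry14 and 99 with Entpd1. Whether the quantification used the strand of the reads is not given in the sources used here.

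P2ry1 encodes an ADP receptor coupled to Gq, and P2ry14 a receptor for UDP-glucose coupled to Gi. They lie on chromosome 3 of GRCm39, P2ry1 on the forward strand (chr3:60910159-60916403) and P2ry14 on the reverse strand (chr3:59021276-59061134). P2ry1 had 45.2, 43.6 and 41.4 TPM in BALB/c and 45.2, 45.5 and 43.5 TPM in C57BL/6 libraries, which overlap. Its log2 fold change in CPM was 0.22 (SE 0.04, Benjamini-Hochberg adjusted p = 0.00256 in edgeR), but 0.07 with plain library size (adjusted p = 0.171 in edgeR), so its call depends on the scaling. P2ry14 had 164, 171 and 158 TPM in BALB/c and 142, 129.8 and 133 TPM in C57BL/6 libraries, lower in C57BL/6 without overlap. In CPM its log2 fold change was -0.10 (95% interval -0.19 to -0.01, adjusted p = 0.0610 in edgeR), which did not pass the test. With plain library size it was -0.25 and passed (adjusted p = 0.0011 in edgeR).

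P2ry14 made up most of the P2Y signal in both strains, 77.7 ± 0.755% of the summed TPM of the 3 genes in BALB/c and 74.8 ± 0.944% in C57BL/6 (SD, n = 3 per strain). P2ry2 contributed 1.80 ± 0.213% and 0.349 ± 0.0762%. The P2Y sum was 211 ± 7.79 TPM in BALB/c and 180.2 ± 6.62 TPM in C57BL/6, but overlapped in CPM (301 ± 7.43 and 299.9 ± 6.20).

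Adora2b, on chromosome 11 of GRCm39 (chr11:62139804-62157279, forward strand), encodes the A2B receptor, a low-affinity adenosine receptor that couples to Gs and raises cyclic AMP. It had 26.3, 24.4 and 23.6 TPM across BALB/c libraries and 66.0, 57.8 and 54.9 TPM across C57BL/6 libraries. All C57BL/6 libraries were more than 2-fold above all BALB/c libraries. In reads these were 972, 853 and 1060 against 2756, 2138 and 2575. The mean in CPM was 29.1 ± 1.24 in BALB/c and 79.3 ± 6.76 in C57BL/6 (SD, n = 3 per strain), with log2 fold change 1.45 (SE 0.07, 95% interval 1.30 to 1.60, Benjamini-Hochberg adjusted p = 2.62e-07 in edgeR). Without single libraries it was 1.38 to 1.51. A bulk measurement cannot tell a difference in the share of cells that express a gene from a difference in RNA per cell, here or for the other genes.

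Adora2a, on chromosome 10 of GRCm39 (chr10:75152560-75170628, forward strand), encodes a high-affinity adenosine receptor, also coupled to Gs, and was barely expressed. It had 44, 37 and 39 reads across BALB/c libraries and 73, 70 and 89 across C57BL/6 libraries, or 0.808, 0.728 and 0.644 against 1.27, 1.57 and 1.40 TPM. The strains were apart on both scales. The log2 fold change was 1.02 (SE 0.18, 95% interval 0.61 to 1.42, Benjamini-Hochberg adjusted p = 0.00121 in edgeR). The value lies at the 2-fold threshold, and it was under 2-fold without library S11 (0.90), S13 (0.98) or S14 (0.998) and with plain library size (0.87), while the adjusted p stayed under 0.05 in all 16 alternatives.

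Adora3, on chromosome 3 of GRCm39 (chr3:105778174-105816242, forward strand), encodes the Gi-coupled A3 receptor and had the highest level of the 10 genes in both strains. It had 200.45, 215 and 204 TPM in BALB/c and 215, 189 and 190.5 TPM in C57BL/6 libraries, which overlap. The log2 fold change in CPM was 0.12 (95% interval 0.0030 to 0.23, adjusted p = 0.0790 in edgeR), which did not pass the test, and its sign turned with plain library size (-0.03). GENCODE places 2 genes over Adora3 on the same strand, Tmigd3 with 154 shared exon bases and Gm53046 with 670, so some reads could be counted for another gene. The reads assigned to Tmigd3 were few, at 2.44 ± 0.857 (BALB/c) and 2.40 ± 1.79 CPM (C57BL/6; SD, n = 3 per strain).

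Within the adenosine receptors, Adora2b took 10.7 ± 0.769% of the summed TPM in BALB/c and 23.0 ± 0.639% in C57BL/6 BMMCs (SD, n = 3 per strain), and Adora3 89.0 ± 0.804% and 76.5 ± 0.623%. The ratio of Adora2b to Adora3 TPM was 0.131, 0.113 and 0.115 across BALB/c libraries and 0.307, 0.306 and 0.288 across C57BL/6 libraries. This ratio does not depend on library scaling, and its values did not overlap. The summed TPM was 232 ± 6.73 and 259 ± 20.1, and the strains were apart also in CPM (351 ± 11.9 and 429 ± 26.0).

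**Figure D2:**
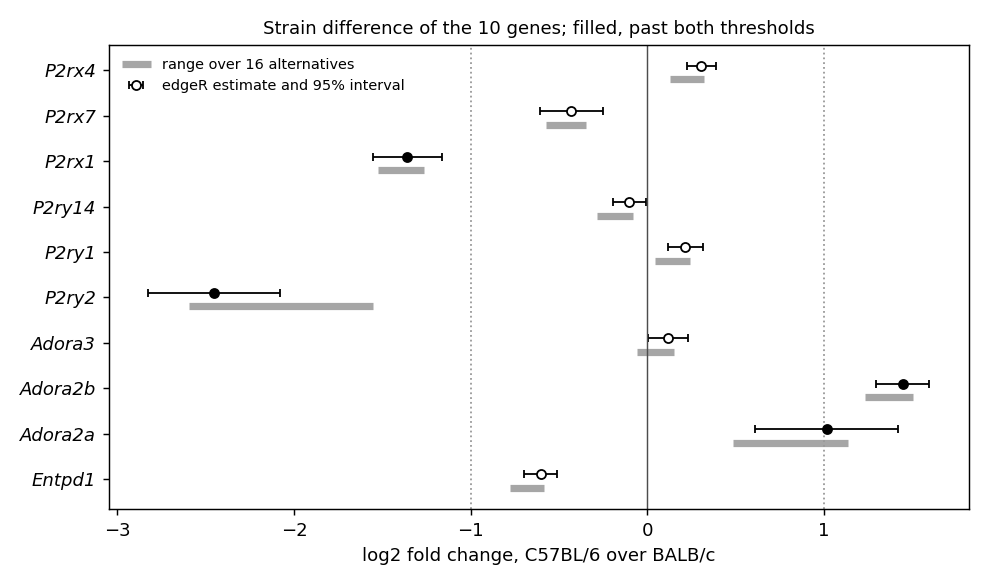
Log2 fold change of the 10 genes, C57BL/6 over BALB/c, with the 95% interval of edgeR's test (black) and the range over 16 alternative settings (grey). Filled points are past both thresholds and dotted lines mark 2-fold. P2rx1, P2ry2 and Adora2b stay beyond 2-fold over all settings, Adora2a crosses the line and Adora3 crosses 0.

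Entpd1, on chromosome 19 of GRCm39 (chr19:40600810-40731585, forward strand), had 27.8, 27.3 and 25.1 TPM across BALB/c libraries and 15.8, 14.98 and 15.8 TPM across C57BL/6 libraries. All C57BL/6 libraries were lower. Its level went from 75.3 ± 2.73 to 49.5 ± 0.720 CPM (SD, n = 3 per strain), with log2 fold change -0.60 (SE 0.04, Benjamini-Hochberg adjusted p = 2.82e-06 in edgeR), which is under 2-fold. Nt5e, the enzyme for the next step, went the other way, with 86, 52 and 83 reads in BALB/c and 708, 791 and 1141 in C57BL/6 libraries. Nt5e rose from 2.22 ± 0.478 to 27.9 ± 5.17 CPM, with log2 fold change 3.65 (SE 0.18, Benjamini-Hochberg adjusted p = 4.42e-07 in edgeR). The ratio of Entpd1 to Nt5e TPM was 24.4, 37.6 and 27.9 across BALB/c libraries and 1.90, 1.43 and 1.33 across C57BL/6 libraries, far apart.

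Ordered by TPM, BALB/c BMMCs had Adora3 first, then P2ry14, P2rx4, P2rx7 and P2ry1, each without overlap with the next. Entpd1, P2rx1 and Adora2b followed at like levels (means of 26.7, 25.5 and 24.7 TPM), with overlap between neighbours, and P2ry2 and Adora2a were last. In C57BL/6 BMMCs the order was Adora3, P2rx4, P2ry14, Adora2b, P2rx7, P2ry1, Entpd1, P2rx1, Adora2a and P2ry2. There, P2rx7 and P2ry1 overlapped and no other neighbours did. Adora2b thus stood level with P2rx1 in BALB/c and above P2rx7 in C57BL/6, and the last places of Adora2a and P2ry2 were exchanged.

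Salmon also gives estimates per transcript, 30 of the 37 with a mean above 0.1 TPM, and these rest on how reads shared by isoforms are split. Of the 37 transcripts 28 were tested, and 5 of these were past both thresholds, where 6.32% of all 31918 transcripts tested were. Adora2b is listed with 1 transcript, which repeats the gene's change. Of the 2 P2rx1 transcripts both were lower in C57BL/6, by -1.52 for NM_008771.3 (Benjamini-Hochberg adjusted p = 0.00367 in edgeR) and -1.20 for XM_006532451.2 (adjusted p = 0.0206). The call of XM_006532451.2 held in 2 of 6 fits with a library left out and was lost without S10, S11, S12 or S14 (adjusted p up to 0.0847), though its log2 fold change stayed at -1.35 to -1.01, while NM_008771.3 held in 6 of 6. The P2ry2 transcript NM_008773.4 fell by 3.23 on the log2 scale (adjusted p = 0.0154 in edgeR), a call lost without S10, S11 or S13 (adjusted p up to 0.0728), with log2 fold changes of -3.80 to -2.91 over the 6 fits with a library left out. Its share of P2ry2 TPM ranged from 19.3% to 100% among C57BL/6 libraries, so the estimates for single P2ry2 isoforms are uncertain, as are those of Adora2a.

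Transcripts of P2rx7 differed in direction. NM_001038839.3 had 1.44, 2.81 and 2.19 TPM across BALB/c libraries and 6.74, 5.13 and 5.56 TPM across C57BL/6 libraries, higher in C57BL/6 without overlap. Its log2 fold change was 1.59 (SE 0.29, Benjamini-Hochberg adjusted p = 0.0227 in edgeR), and its share of P2rx7 TPM was 3.09 ± 0.683% in BALB/c and 12.2 ± 1.25% in C57BL/6 (SD, n = 3 per strain). The most abundant form in BALB/c, NM_001284402.2, had 29.01, 40.4 and 40.2 TPM there and 20.0, 15.2 and 18.6 TPM in C57BL/6, with log2 fold change -0.87 (adjusted p = 0.0261 in edgeR), under 2-fold. With a library left out, NM_001038839.3 stayed past both thresholds in 2 of 6 fits (adjusted p from 0.0324 to 0.0857, log2 fold change 1.36 to 1.82), the call being lost without S11, S12, S13 or S14. NM_001284402.2 had an adjusted p under 0.05 in 1 of those 6 fits, without S9, and up to 0.0936 in the others, with log2 fold changes of -1.03 to -0.78. NM_011027.4 had a log2 fold change of -0.17 (adjusted p = 0.178 in edgeR), which did not pass. Nor did NM_001038887.2, at -0.14 (adjusted p = 0.901 in edgeR).

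**Figure D3:**
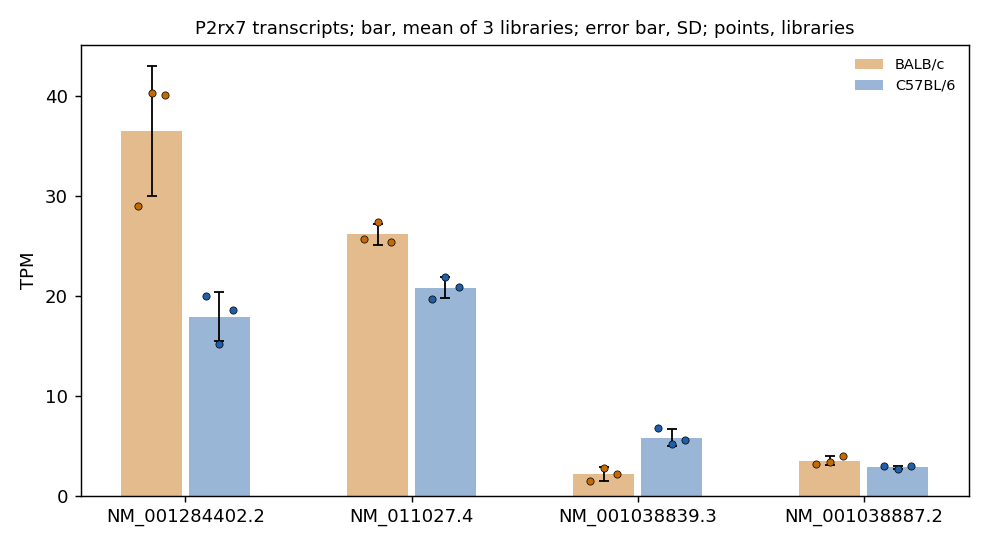
Level in TPM of the 4 P2rx7 transcripts with a mean above 0.1 TPM. Bars are means of 3 libraries, error bars SD and points libraries. In TPM, NM_001038839.3 is higher and the other 3 are lower in C57BL/6, each without overlap between the strains. Of those 3, only NM_001284402.2 had an adjusted p under 0.05 in edgeR.

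Other genes of the pathway were taken from lists of 62 genes, of which 39 had enough reads. These lists too were chosen with earlier results of these data known. Past both thresholds were 7, 5 higher and 2 lower in C57BL/6, and 24 differed by the adjusted p alone, 15 higher and 9 lower, where the shares over all genes tested were 13.3% and 52.9%. Among the other receptors P2rx2, P2ry12 and Adora1 had no reads in any library, and P2ry4, P2ry6 and P2ry13 had at most 4. P2rx6 had 1, 0 and 3 reads in BALB/c and 14, 10 and 9 in C57BL/6 libraries, too few to be tested, and P2rx5 did not pass (log2 fold change -0.75, adjusted p = 0.0997 in edgeR). P2rx3, a channel best known from sensory neurons, had 22, 35 and 35 reads in BALB/c and 2 in each C57BL/6 library, with log2 fold change -3.79 (95% interval -4.72 to -2.86, adjusted p = 5.71e-05 in edgeR), though on log2(TPM + 1) it was -0.37 and under 2-fold. P2rx3 passed the filter on low counts through BALB/c alone, and dropped out with a filter of 10 counts in every library. At 0.430 TPM or less in every library it added little to the P2X sum.

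Of 12 genes listed as ectonucleotidases, not all of them enzymes of the cell surface, 5 were tested. Besides Nt5e only Entpd5, an enzyme that acts on UDP in the secretory pathway, had an adjusted p under 0.05 (log2 fold change 0.25, adjusted p = 0.00510 in edgeR). Of 9 genes of adenosine handling 8 were tested, and 6 differed by the adjusted p, as did 52.9% of all genes tested. Adk, which phosphorylates adenosine inside the cell, fell from 36.6 ± 1.87 to 15.3 ± 0.955 CPM (SD, n = 3 per strain), with log2 fold change -1.26 (adjusted p = 6.03e-07 in edgeR). The nucleoside transporter Slc29a1 was lower by -0.44 and the adenosine deaminase Ada by -0.37, with overlap for Ada, while Pnp, which splits inosine, was higher by 0.42. Dpp4, the surface peptidase CD26, rose from 0.419 ± 0.262 to 3.20 ± 0.774 CPM (log2 fold change 2.91, adjusted p = 1.78e-04 in edgeR), and was under 2-fold on log2(TPM + 1), at 0.72. The 6 tested genes of ATP release, such as the channel Panx1, each stayed under 2-fold. Lrrc8b and Lrrc8c passed the adjusted p at 0.16 and 0.47, where 52.9% of all genes tested passed it. In TPM the strains overlapped for Lrrc8b, with means of 19.6 in BALB/c and 19.4 in C57BL/6.

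Of 23 genes of signal transduction 18 were tested, and 3 were past both thresholds, all higher in C57BL/6, where 13.3% of all genes tested were past both and 7.73% were higher. Adcy8, an adenylyl cyclase stimulated by calcium, had 78, 32 and 50 reads in BALB/c and 1115, 1127 and 1464 in C57BL/6 libraries, with log2 fold change 4.60 (SE 0.20, adjusted p = 1.87e-07 in edgeR). On log2(TPM + 1) the value of Adcy8 was 2.934. Gnai1, an inhibitory G protein subunit, rose by 1.39 (adjusted p = 1.94e-05 in edgeR; 0.83 and under 2-fold on log2(TPM + 1)) and the cyclase Adcy3, with at most 37 reads in a library, by 2.93 (95% interval 1.49 to 4.37, adjusted p = 0.00397 in edgeR). Adcy3 had 6, 4 and 0 reads in BALB/c and 27, 13 and 37 in C57BL/6 libraries. Only its C57BL/6 reads made it eligible for testing, and requiring 10 reads of each library left it untested. The place of Adcy3 among the 3 thus depends on the rule for low counts. Its call was also lost when unmatched transcripts were kept (adjusted p = 0.0815 in edgeR). The value of Adcy3 was 0.25 on log2(TPM + 1), 3.65 without S9 and 2.28 without S11. The more abundant cyclase Adcy7 went from 181 ± 21.0 to 301 ± 9.76 CPM, with log2 fold change 0.73, and Gnas, the subunit through which the receptors of Adora2a and Adora2b act, was at 819.5 ± 19.6 and 777 ± 25.5 CPM and did not pass (adjusted p = 0.116 in edgeR). Of the phospholipases downstream of Gq, Plcb1 was lower, with log2 fold change -0.81, Plcb2 and Plcb4 were higher by 0.48 and 0.36, and Plcb3 did not pass (-0.05).

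**Figure D4:**
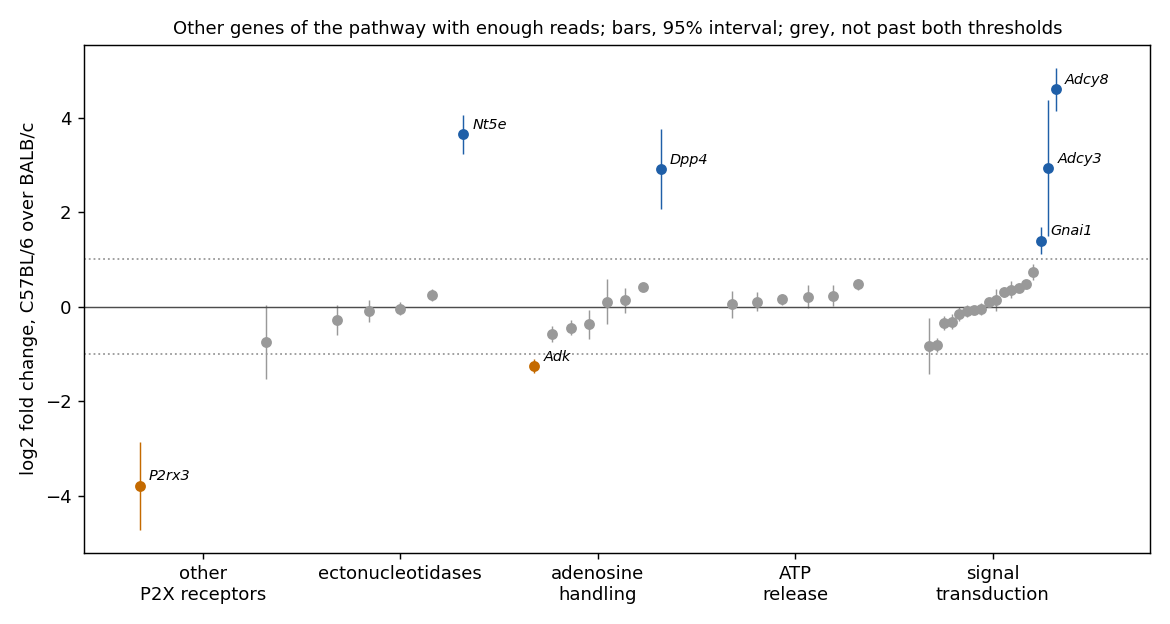
Log2 fold change, C57BL/6 over BALB/c, of the 39 other pathway genes tested, by list, with 95% intervals. Named genes are past both thresholds (blue higher, orange lower in C57BL/6, grey not past both). Nt5e, Dpp4, Adcy8, Adcy3 and Gnai1 stand above and P2rx3 and Adk below the dotted 2-fold lines.

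All 10 mast cell markers, Kit and Fcer1a among them, had a mean above 1 TPM, with sums of 35433 to 39366 TPM in BALB/c and 34883 to 38151 TPM in C57BL/6 libraries. Within that sum Tpsb2 and Hdc were higher in C57BL/6 (log2 fold changes 2.32 and 1.19) and Cma1 was lower (-0.43). Other marker lists moved with the strain, and unevenly. The sums of 8 basophil markers were 515 to 529.8 TPM in BALB/c and 639.9 to 668 TPM in C57BL/6, with Cebpa, Prss34, Ccl9 and Mcpt8 higher (6.53, 5.86, 5.52 and 1.12), Il18r1 lower (-0.54) and Cd200r3 at -0.07, which did not pass. For 8 macrophage markers the sums were 0.937 to 1.77 and 8.34 to 9.72 TPM, from Adgre1 and Cd68, with Csf1r, C1qa, C1qb and C1qc at 0 reads throughout. For 6 dendritic cell markers they were 5.71 to 7.33 and 13.01 to 14.1 TPM, with Itgax higher (2.21), Cd74 and H2-Ab1 lower (-2.88 and -0.95) and Siglech at 0. For 8 megakaryocyte and platelet markers they were 648 to 662 and 714 to 790.4 TPM, almost all from Itga2b (0.58) and Gp1ba (-0.33), with Ppbp, Gp9 and Treml1 among those at 0. Neutrophil and B cell sums reached at most 0.289 TPM, and those of T or NK cells were 5.30 to 6.30 and 4.23 to 5.04 TPM. The part of such cells in the strain differences was not tested.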

How the data were processed

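Strand-specific mRNA libraries were sequenced by the authors, who checked reads with FastQC 0.11.5 and quantified transcripts with Salmon 0.8.2. The deposited tables hold estimated counts, which need not be whole, and deposited TPM values, scaled for length and library. The study's methods name Ensembl GRCm39, while the tables list RefSeq transcripts. These were matched without version to gene symbols through a RefSeq table of GRCm38.p6 (106440 of 129698 transcripts, 82.1%). Unmatched transcripts held 2.69% to 3.12% of the reads and were left out. Both strains were quantified against the same transcripts. Whether sequence differences between the strains changed the assignment of reads to genes or isoforms was not tested.

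Counts were summed by gene, rounded and compared with edgeR 4.0.16 (R 4.3.3), quasi-likelihood test, TMM factors (0.940 to 1.05), a minimum count of 10, strain as the only term and Benjamini-Hochberg adjustment over all 12461 genes tested. Calls needed an adjusted p under 0.05 and a fold change above 2. The biological coefficient of variation was 0.0665. Replicate libraries differed by more than counting noise (chi-square per degree of freedom 6.60 to 13.6) and were kept apart. Alternatives used DESeq2 1.42.0, limma 3.58.1 on log2 TPM with 1 or 0.1 added, other scalings and filters, and each library left out. Scripts were tested on simulated data.

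Named are the 10 genes, pathway receptors, pathway genes past both thresholds, member transcripts with a mean above 0.1 TPM, genes overlapping a member, and the 3 genes closest in pattern to the member with the largest change. Other pathway and marker genes given with values were named after their values were seen. Members and lists were chosen with earlier results of these data known. Coordinates of genes come from GENCODE vM39 on GRCm39. A promoter sequence was found for 9 of the 10 genes. Some genes of the marker lists are not reported here.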

Additional observations from a re-analysis of the deposited data

How the results depend on the processing

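Of 160 values of the 10 genes under 16 alternatives each, 150 kept their direction and their side of the combined p and fold call. By the adjusted p alone, 10 values crossed its threshold, of P2rx4, P2ry1 and P2ry14. The 7 that no longer passed were all of Adora2a, with a log2 fold change of 0.99 with upper-quartile normalization, 0.87 with plain library size, 0.48 on log2(TPM + 1), 0.87 on log2(TPM + 0.1) and 0.90, 0.98 and 0.998 without libraries S11, S13 and S14. The 3 that reversed were of Adora3, -0.027 with plain library size, -0.061 on log2(TPM + 1) and -0.062 on log2(TPM + 0.1), and none of its values passed the test. The count of 4 genes past both thresholds was 3 or 4 elsewhere, 3 to 4 when each library was left out and 8 by the adjusted p alone. The count of 7 other pathway genes was 4 with a filter of 10 counts in every library and 3 on log2(TPM + 1), and 8 to 9 when each library was left out. That filter removed P2rx3, Dpp4 and Adcy3. The count of 5 transcripts was 2 to 6 when each library was left out, 3 without S10, S12, S13 or S14, 2 without S11 and 6 without S9. Tmigd3, which overlaps Adora3, turned from -0.07 to 0.27, 0.19 and 0.25 without S11, S12 and S14 and was -0.84 without S13. The cause of these shifts was not tested. No paired analysis was possible because the labels tie no library to a culture or an animal. Few reads limit Adora2a, P2rx3, P2rx5, P2rx6, Dpp4 and Adcy3.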

Other observations

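Among tested genes outside the pathway, those with the level pattern closest to P2ry2 over the 6 libraries were the cadherin gene Cdh4, the class I histocompatibility gene H2-Q5 and Wdfy1. The root mean square difference from P2ry2 in log2 CPM, centred per gene, was 0.152, 0.163 and 0.165. Their log2 fold changes were -2.50, -2.29 and -2.22, C57BL/6 over BALB/c, beside -2.45 for P2ry2. Cdh4 went from 4.27 ± 0.228 to 0.754 ± 0.0845 CPM and Wdfy1 from 103 ± 5.27 to 22.3 ± 1.45 CPM (SD, n = 3 per strain). With 2 groups of 3 libraries, this likeness reflects the strain difference and the spread within strains alone.

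P2ry14 lies within Med12l, which is on the opposite strand and shares no exon bases with it. Med12l was lower in C57BL/6 BMMCs, from 8.89 ± 0.328 to 7.13 ± 0.338 CPM (SD, n = 3 per strain), with log2 fold change -0.32 (Benjamini-Hochberg adjusted p = 0.0124 in edgeR, but 0.0594 in DESeq2). P2ry14 itself was at 183 ± 5.87 and 170.2 ± 4.46 CPM.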
